A study of Mus musculus with 4 samples.

Results

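L2/3-Rorb neurons are an upper-layer excitatory subtype of the mouse ventromedial prefrontal cortex (vmPFC), and the members were all cells that the deposited annotation places in the cluster of that name. There were 482 of them among 8210 excitatory neurons with a subtype, which is 5.87%. By library, 140 of 2440 neurons came from unsorted mouse 1 (5.74%), 107 of 2146 from unsorted mouse 2 (4.99%), 126 of 2119 from unsorted mouse 3 (5.95%) and 109 of 1505 from the FAC-sorted library (7.24%). The exact 95% binomial intervals of these shares spanned 4.10 to 7.04% without sorting and 5.98 to 8.67% with it. All 482 shared 1 cluster number and the layer label L2/3-Cux2, which they split with the other upper-layer subtype, L2/3-Calb1 (334 neurons). Gene expression was not analysed here, so the level of Rorb in these neurons was not measured and the name rests on the annotation alone.

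The libraries came from MERGE-seq, in which retrograde viruses with different barcodes mark where the axons of single neurons end, and the barcodes are read together with the transcriptome. Male C57BL/6 mice had received rAAV2-retro-EGFP viruses, driven by a short CAG promoter, at 8 weeks of age on 1 side of the brain, with 1 barcode for each of 5 targets. The targets were the agranular insula (AI), the dorsomedial striatum (DMS), the mediodorsal thalamus (MD), the basolateral amygdala (BLA) and the lateral hypothalamus (LH). Prelimbic and infralimbic tissue of 3 mice was used without sorting, as 1 library each, and EGFP-positive cells of 3 other mice were FAC-sorted and pooled into 1 library. All 4 libraries therefore carried the same 5 viruses, there was no uninjected control, and the FAC-sorted library had no replicate. The virus for each target had its own volume and titer, so a larger UMI count for 1 barcode than for another is not a measure of a denser projection.

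Upper-layer excitatory neurons of the cortex are mostly intratelencephalic: their axons stay within the cortex, striatum and amygdala of either hemisphere. Projections to the thalamus and hypothalamus arise mainly from neurons of deeper layers. Rorb encodes a nuclear receptor known as a marker of middle and upper cortical layers in sensory areas, and Cux2, a homeobox gene, is a classical marker of upper layers. Calb1, the name gene of the other upper-layer subtype, encodes the calcium buffer calbindin.

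Targets were read from 15-base barcodes, which are shown because each projection below rests on telling them apart. Capitals mark the positions at which a barcode differs from that of DMS, the barcode with the most UMIs in these neurons.
AI: CTGCAcCGaCGcAtt
DMS: gaaggcacagacttt
MD: gTTggcTGCAaTCCA
BLA: AaGACGCcGTCGCAA
LH: TaTTCGGAGgacGAC
The AI and MD barcodes each differed from the DMS barcode at 10 positions, that of LH at 11 and that of BLA at 13. A read was assigned to a barcode by the authors with up to 2 mismatches.

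Counts below are UMIs, the random tags that let all reads of 1 molecule be counted once. The projectome libraries held 20443286 to 32895529 reads, and each recovered cell had 14639 reads on average in the sorted library against 2542 to 4544 without sorting. A barcode was valid in a neuron where its count was above the authors' threshold, which was 28 UMIs (AI), 101 (DMS), 114 (MD), 35 (BLA) or 103 (LH). A neuron with at least 1 valid barcode is called barcoded, one with exactly 1 is dedicated, and one with more is collateral. Of 9822 non-neuronal cells, 5 were above the DMS threshold, 4 above that of AI, 4 above that of MD, 3 above that of LH and 0 above that of BLA. The authors had placed each threshold no lower than a high percentile of such cells, so low counts were built in. They are therefore no independent measure of false calls. No cell barcode was shared among the 482 neurons, and 3 of the 482 had a cell barcode that also occurred in another library. A recount of the reads differed from the deposited table in 85 of 2410 entries, each a single UMI that the table lists as 0.

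The transcriptome of L2/3-Rorb neurons was read at similar depth in the unsorted mice and more deeply after sorting. The median number of transcriptome UMIs per neuron was 20089, 20660 and 22218 for mice 1, 2 and 3, against 28817 after sorting. A median of 5654, 5712 and 5821 genes was detected in the unsorted mice, and 6664 in sorted neurons. Mitochondrial UMIs had medians between 6.82 and 7.01% without sorting, against 3.64% in the sorted neurons. In each library L2/3-Rorb ranked the 4th of 7 subtypes by median UMIs. L2/3-Calb1 neurons had fewer UMIs in every library, with medians of 17189, 19103.5 and 19101 in the unsorted mice and 27963.5 after sorting. These values describe a cluster that was itself made from the transcriptome, and they were not tested.

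DMS was the most abundant barcode in L2/3-Rorb neurons of all 4 libraries. The median DMS count per neuron was 45, 49 and 83 UMIs for mice 1, 2 and 3, and sorted neurons had 134. For AI, the medians were 6, 11 and 13.5 UMIs in the unsorted mice and 17 after sorting. MD had medians of 11, 14, 23.5 and 48 UMIs in the same order of libraries. LH followed with 11, 13, 19 and 32 UMIs, and BLA was lowest with 3, 4, 5 and 10. Each barcode thus had its lowest median in mouse 1 and its highest in the sorted library, and the reads per recovered cell were ordered in the same way. DMS was the barcode with the most UMIs in 433 of the 482 neurons (89.8%), AI in 41, BLA in 6, and MD and LH in 1 each. Summed over neurons, DMS gave 54.3% of barcode UMIs, MD 15.7%, AI 13.1%, LH 11.9% and BLA 4.93%.

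The counts had long upper ends for AI, DMS and BLA. In the unsorted mice, AI reached 171, 256 and 191 UMIs and BLA 130, 95 and 120 UMIs, each well above its threshold. The largest DMS counts were 272, 313 and 343 UMIs in the unsorted mice and 579 in the sorted library. MD and LH stayed below their thresholds of 114 and 103 in the unsorted mice, with maxima of 65, 97 and 97 UMIs for MD and 56, 74 and 79 for LH. L5-Htr2c neurons, with medians of 13886, 14325 and 15635 transcriptome UMIs in the unsorted mice, had median DMS counts of 10, 17 and 18 UMIs there. None of them was barcoded in the mice, and 1 of 4 was in the sorted library. The paper reports more L5-Htr2c neurons with valid barcodes, and the reason for the difference was not examined.

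**Figure D1:**
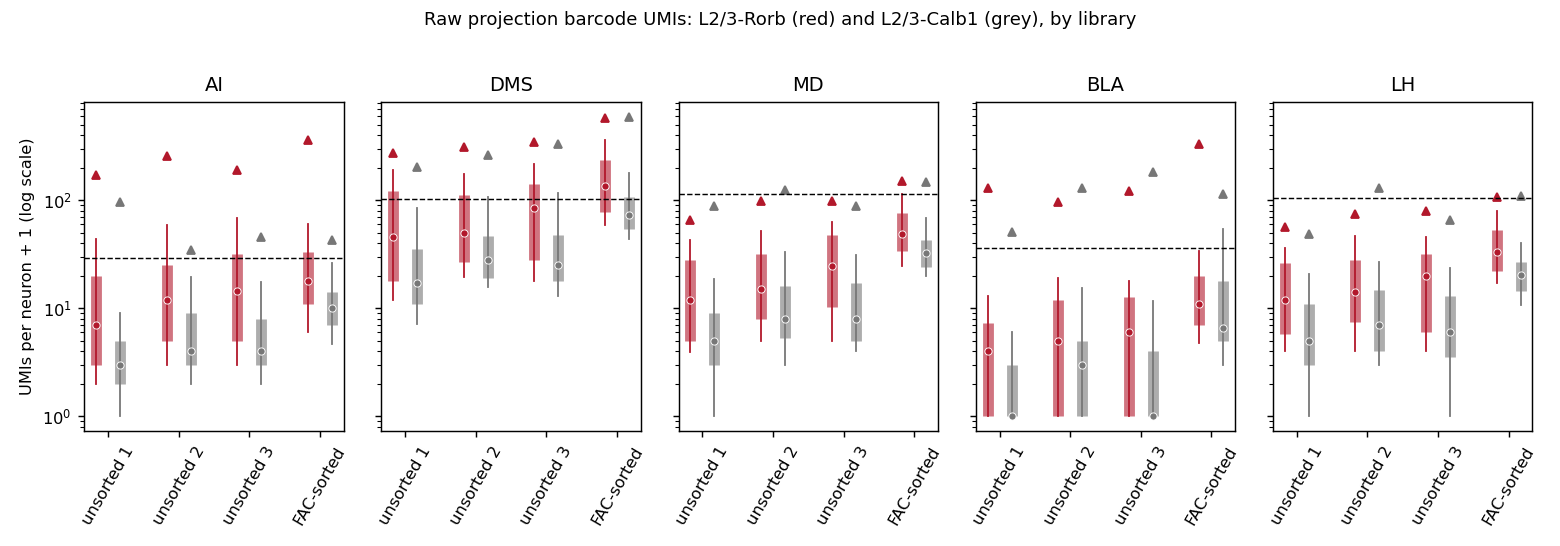
Raw UMIs per neuron, plus 1 on a log axis, for the 5 barcodes in the 4 libraries, for L2/3-Rorb (red) and L2/3-Calb1 (grey). Circles are medians, thick bars the 25th to 75th percentile, thin lines the 10th to 90th percentile, triangles the maximum and dashed lines the validity threshold. The L2/3-Rorb medians lie above those of L2/3-Calb1 in all 20 pairs, and in the unsorted mice no L2/3-Rorb neuron reaches the MD or LH threshold.

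Of the 482 neurons, 231 were barcoded (47.9%). In unsorted mice 1, 2 and 3 there were 54 of 140, 43 of 107 and 61 of 126 barcoded neurons, or 38.6, 40.2 and 48.4%. Their mean was 42.4 ± 5.28% (SD, n = 3 mice). In the FAC-sorted library 73 of 109 were barcoded, or 67.0% (exact binomial interval 57.3 to 75.7%), above all 3 mice by 24.6 percentage points on average. The exact one-sided permutation test gave p = 0.25, the smallest that 1 library against 3 allows. When reads were thinned to equal numbers per recovered cell, the difference turned to -8.13 points at the authors' thresholds and to -7.28 points at thresholds set anew. This thinning kept a share of 0.174 of the sorted reads. It counted recovered cells of any type, so it need not make reads per labelled neuron equal. Before thinning, L2/3-Rorb neurons had means of 29.3, 36.4 and 38.8 reads per UMI in the mice and 38.3 in the sorted library. Sorting and read depth cannot be told apart in this comparison, since the only sorted library also had the most reads per cell.

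DMS and AI were the main targets. Valid DMS barcodes were found in 41, 28 and 49 neurons of the unsorted mice, or 29.3, 26.2 and 38.9%, with a mean of 31.4 ± 6.63% (SD, n = 3). In the FAC-sorted library, 69 neurons had one (63.3%). AI was valid in 19, 25 and 38 neurons of the mice, or 13.6, 23.4 and 30.2%, with a mean of 22.4 ± 8.34%. After sorting it was valid in 32 neurons (29.4%), within the range of the mice, whereas DMS was above all of them.

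BLA was rare and MD and LH were not called without sorting. BLA was valid in 3, 4 and 3 neurons of the unsorted mice, a mean share of 2.75 ± 0.861%, and in 7 sorted neurons (6.42%). For both MD and LH, 0 of 140, 0 of 107 and 0 of 126 neurons were valid. With 3 counts taken as the limit, these counts of 0 allow shares of up to 2.14, 2.80 and 2.38%. The exact 95% intervals reach higher, to 2.60, 3.39 and 2.89%. The sorted library held 10 neurons with MD (9.17%) and 3 with LH (2.75%). All 10 neurons with a valid MD or LH barcode had valid AI and DMS barcodes too. Their MD counts were 118 to 149 UMIs and their median DMS count was 489; the median of all sorted members was 134. No L2/3-Rorb neuron was dedicated to MD or LH in any library. These counts rest on the high thresholds of the authors. Thresholds recomputed on the non-neuronal cells alone were 10 UMIs for BLA, 71 for MD and 40 for LH. At these, 135 of the 482 neurons had BLA, 39 MD and 73 LH. The sorted library held 51 of these BLA, 30 of the MD and 37 of the LH neurons. In the mice, MD was then valid in 0, 3 and 6 neurons. Only 73 of the 9822 non-neuronal cells were sorted, and their median MD count was 8 UMIs against 0 in each mouse. Over all libraries, non-neuronal cells had a median of 4114 transcriptome UMIs, against 22332.5 in L2/3-Rorb neurons. The authors had taken the higher of the limits from non-neuronal and from EGFP-negative sorted cells. The thresholds recomputed here were lower than theirs, so extra calls were built in.

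Many calls lay near the thresholds. Of the 114 neurons with valid AI, 47 were within 1.5 times the threshold, and another 67 lay below it by at most the same factor. For DMS, 71 of 187 valid neurons were that near, with 68 more just below. All 10 MD calls and all 3 LH calls were within 1.5 times of their thresholds. AI calls began at 29 UMIs with a highest uncalled count of 28, and DMS calls at 102 with a highest uncalled count of 101, so neither distribution had a gap there.

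Seen from the target, L2/3-Rorb supplied more of the AI and DMS neurons than its share of all neurons. Of all neurons with valid AI, 16.2, 15.4 and 17.5% were L2/3-Rorb in the unsorted mice (mean 16.4 ± 1.05%, n = 3), and 10.4% in the sorted library. Of those with valid DMS, the shares were 21.1, 13.0 and 19.0% (mean 17.7 ± 4.24%), and 12.0% after sorting. For BLA the mean was 12.6 ± 4.05%, from 22 to 37 BLA neurons a mouse, and the sorted value was 8.86%. Of the MD and LH neurons, none was L2/3-Rorb in the mice, and 3.55 and 1.96% were in the sorted library.

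Among subtypes, L2/3-Rorb was compared within each library, so that the sequencing of the library and the sorting were shared. Transcriptome depth per neuron still differed between subtypes. In these comparisons the difference was taken in all 4 libraries and tested with an exact two-sided sign-flip test, whose smallest p is 0.125. No difference could therefore pass 0.05, and the agreement of the 4 libraries is given in its place. The units of the test are the 3 mice and the pooled library, not the neurons. The pooled library was selected on EGFP and is no replicate of the mice. Means and SDs over the 4 libraries therefore mix sorted and unsorted neurons.

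The 2 upper-layer subtypes differed in barcoded share in 4 of 4 libraries. L2/3-Calb1 neurons were barcoded in 9.71, 16.3 and 15.8% of cases in the unsorted mice and 42.1% in the sorted library. L2/3-Rorb was higher in each, by 28.9, 23.9, 32.6 and 24.9 percentage points (mean 27.6 ± 4.01, SD, 4 of 4 libraries, exact sign-flip p = 0.125). The spread between libraries was small beside this difference, which was 15.9 ± 3.98 points with UMIs of at least 2 reads. L2/3-Calb1 had 57 barcoded neurons in all, of 334.

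AI and DMS were both higher in L2/3-Rorb. For DMS, L2/3-Calb1 had 5.83, 11.2, 11.6 and 26.3% valid neurons in the 4 libraries, and L2/3-Rorb was higher by 25.7 ± 9.14 points. For AI, L2/3-Calb1 had only 1.94, 2.04, 4.21 and 10.5%, and the difference was 19.4 ± 5.98 points. Both were higher in 4 of 4 libraries, with an exact sign-flip p of 0.125 and 0.3125 after adjustment over the 5 targets. The AI difference was smaller with the DMS threshold for all barcodes (5.52 points), with UMIs of at least 2 reads (9.18), with each UMI given to 1 barcode (12.0) and with thinned reads (12.7), and the DMS difference was 8.30 points with UMIs of at least 2 reads. BLA went the other way in 3 of 4 libraries, with a mean difference of -3.49 ± 5.74 points (exact p = 0.25, adjusted p = 0.417). This direction turned with thresholds recomputed on non-neuronal cells, where the difference was 12.5 ± 5.32 points (exact p = 0.125), and with thinned reads and new thresholds, at 7.77 ± 8.66. The BLA threshold recomputed on all reads, 10 UMIs, equals the median BLA count of sorted L2/3-Rorb neurons. The mean at the authors' thresholds rests on the sorted library, where 7 of 38 L2/3-Calb1 neurons had BLA and the difference was -12.0 points, against 0.201, -0.343 and -1.83 in the mice. MD and LH differed by 0.723 ± 2.18 and -0.225 ± 0.533 points, less than the spread between libraries (exact p = 1 for both), and LH turned to 10.5 points with the recomputed thresholds.

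Raw UMIs, which use no threshold, gave the same order for AI and DMS. The mean AI count of L2/3-Rorb was 17.8, 25.5, 26.7 and 33.2 UMIs in the 4 libraries, against 4.52, 6.45, 6.48 and 12.2 in L2/3-Calb1. The log2 ratio was 1.86 ± 0.28 (SD, n = 4 libraries), the largest of the 5 barcodes. DMS had a mean of 75.1, 78.2, 97.3 and 179 UMIs against 31.8, 46.6, 45.6 and 106, a log2 ratio of 0.96 ± 0.25. MD and LH followed with log2 ratios of 0.90 ± 0.32 and 0.88 ± 0.23, although their valid shares differed by less than the spread between libraries. These 4 ratios were above 0 in all libraries (exact sign-flip p = 0.125, adjusted p = 0.156). With each UMI given to 1 barcode, the MD ratio fell to 0.33 and the LH ratio to 0.06. The BLA ratio was 0.49 ± 0.63, at 1.42, 0.32 and 0.24 in the mice and -0.0039 in the sorted library (exact p = 0.25). It was 0.19 without mouse 1, and it turned to -0.27 when each UMI was given to 1 barcode.

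L5-S100b, a layer 5 subtype, had the highest mean AI and DMS shares of the unsorted mice, at 25.6 ± 8.48 and 34.7 ± 8.97%, and L2/3-Rorb came next. The barcoded share of L5-S100b was 36.4, 48.7, 56.0 and 69.1%, and L2/3-Rorb differed by -4.01 ± 5.00 points, below it in 3 of 4 libraries (exact sign-flip p = 0.375). This mean was -6.07 without mouse 1, -2.51 without mouse 2, -1.57 with the DMS threshold for all barcodes and -0.665 without the deepest neurons. DMS differed by -1.71 ± 7.55 points, with 2 libraries on either side (exact p = 0.875), and the mean was 1.73 points without mouse 2, -3.88 without mouse 1, -3.24 without the sorted library and -4.57 with UMIs of at least 2 reads. AI was lower in L2/3-Rorb in all 4 libraries, with differences of -4.12, -1.24, -4.40 and -8.05 points and a mean of -4.45 ± 2.79. This AI difference depended on the counting. It was -6.54 ± 2.12 points with thresholds recomputed on non-neuronal cells and -6.85 ± 7.32 with each UMI given to 1 barcode and new thresholds. With exact matches only it was -4.08 ± 3.32, and in the central depth range of L2/3-Rorb -2.17 ± 0.615 (exact p = 0.125 for these 4). It turned to 1.25 ± 1.65 points with the DMS threshold for all barcodes (exact p = 0.25), and it was -0.380 ± 2.50 with UMIs of at least 2 reads (exact p = 1), -1.17 ± 5.57 with each UMI given to 1 barcode (exact p = 0.75) and -1.25 ± 3.50 with thinned reads (exact p = 0.5). At the authors' thresholds BLA was also lower in all 4, with differences of -0.918, -3.59, -8.09 and -3.29 points and a mean of -3.97 ± 2.99. The BLA mean was -2.60 points without mouse 3, -1.37 ± 1.70 with the DMS threshold for all barcodes and -2.40 ± 2.32 with UMIs of at least 2 reads (exact p = 0.25 for the last 2). With thresholds recomputed on non-neuronal cells the BLA mean was -4.34 ± 5.46 (exact p = 0.25), and with thinned reads as well -5.14 ± 8.31 (exact p = 0.375). At the authors' thresholds the AI and BLA differences both had an exact p of 0.125 and an adjusted p of 0.3125.

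L6-Npy, a layer 6 subtype, had a lower barcoded share than L2/3-Rorb. Its shares were 29.1, 38.5, 36.4 and 47.3%, and the difference was 9.51, 1.69, 12.0 and 19.7 points (mean 10.7 ± 7.41, 4 of 4 libraries, exact sign-flip p = 0.125). DMS was higher in L2/3-Rorb by 11.6 ± 10.1 points and AI by 5.60 ± 4.43 points, again in all 4 libraries. In mouse 2 the DMS difference was only 0.645 points, and the DMS mean was 7.15 without the sorted library and 5.48 with UMIs of at least 2 reads. The AI mean was between 2.12 and 2.79 points with the DMS threshold for all barcodes, with UMIs of at least 2 reads, with each UMI given to 1 barcode and with thinned reads. It turned to -1.94 points when each UMI was given to 1 barcode and thresholds were recomputed. BLA, MD and LH differed from L6-Npy by means of 0.558, 1.38 and 0.194 points at the authors' thresholds, each smaller than its SD. With thresholds recomputed on non-neuronal cells the BLA difference was 10.8 ± 4.39 points (exact p = 0.125), MD 4.27 ± 7.90 and LH 5.52 ± 8.07. With thinned reads and new thresholds BLA was 6.03 ± 4.34 and LH 4.87 ± 4.46 points (exact p = 0.125 for both).

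Set against all 6 other subtypes together, L2/3-Rorb differed in the same direction in all 4 libraries for every target at the authors' thresholds. Its barcoded share was higher by 22.8, 21.5, 29.9 and 16.3 points, a mean of 22.6 ± 5.62. DMS was higher by 23.8 ± 5.18 points, AI by 14.2 ± 5.79 and BLA by 1.49 ± 0.862. MD was lower, with differences of -3.13, -5.59, -4.67 and -10.3 points (mean -5.92 ± 3.09), and so was LH, with -2.87, -2.84, -2.86 and -7.99 points (mean -4.14 ± 2.57). Each exact sign-flip p was 0.125, also after adjustment over the 5 targets. All these sizes rest on the way of calling targets. The AI difference was 4.43 points with the DMS threshold for all barcodes. With UMIs of at least 2 reads, the DMS difference was 7.61 and the barcoded difference 13.6 points. The mean BLA difference was 11.8 points with thresholds recomputed on non-neuronal cells and 0.347 ± 0.406 with the DMS threshold for all barcodes (exact p = 0.25). For MD it was -1.27 points with UMIs of at least 2 reads and -10.9 with each UMI given to 1 barcode and new thresholds. For LH these 2 counts gave -0.576 and -12.5 points, and thinned reads with new thresholds gave -1.31 ± 4.04 (exact p = 0.75). Most of the other neurons belonged to L6-Syt6 (4819 neurons), whose unsorted AI and DMS shares were 2.43 ± 1.62 and 2.32 ± 0.551% and whose MD share was 6.60 ± 1.54%, so these differences weigh that subtype most.

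**Figure D2:**
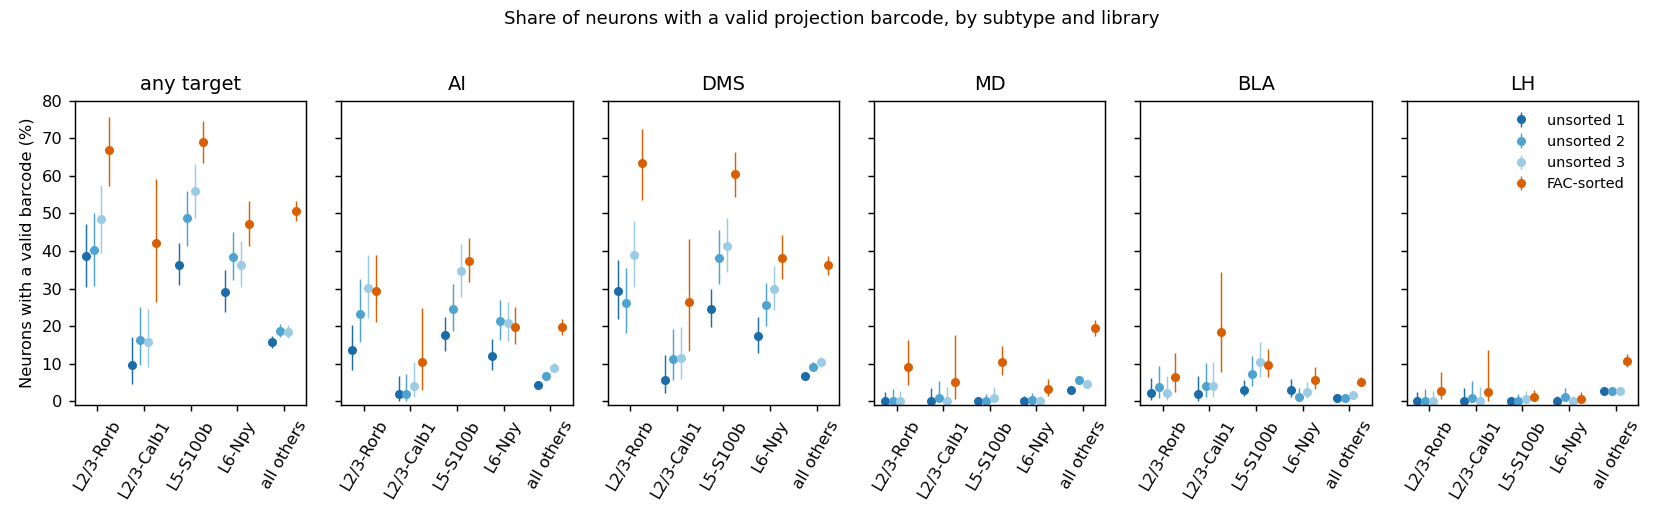
Percent of neurons with a valid barcode for any target and for each of the 5 targets, by subtype, with 1 point per library and exact 95% binomial intervals that cover counting error only. L2/3-Rorb lies above L2/3-Calb1 for any target, AI and DMS in each of the 4 libraries, overlaps the range of L5-S100b, and has no MD or LH neuron in the 3 unsorted mice.

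Target combinations of the 231 barcoded neurons were few. There were 150 dedicated neurons, 68 with 2 valid targets, 9 with 3, and 2 each with 4 and 5. DMS alone was the most frequent pattern with 109 neurons (33, 15 and 22 in the mice and 39 in the sorted library). AI with DMS came next with 61 neurons (8, 12, 25 and 16), and AI alone was found in 37 (10, 12, 11 and 4). AI with DMS and MD was seen in 6 neurons, all sorted. The other 7 patterns held 18 neurons, with at most 4 each. These included 4 neurons with BLA alone, 4 with DMS and BLA, and 3 with AI and BLA.

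The order of the patterns changed between mice. DMS alone made up 61.1% of barcoded neurons in mouse 1 but 34.9 and 36.1% in mice 2 and 3. AI with DMS made up 14.8, 27.9 and 41.0%, and thus was the most frequent pattern in mouse 3 only. AI alone was at 18.5, 27.9 and 18.0% in the mice and 5.48% in the sorted library.

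**Figure D3:**
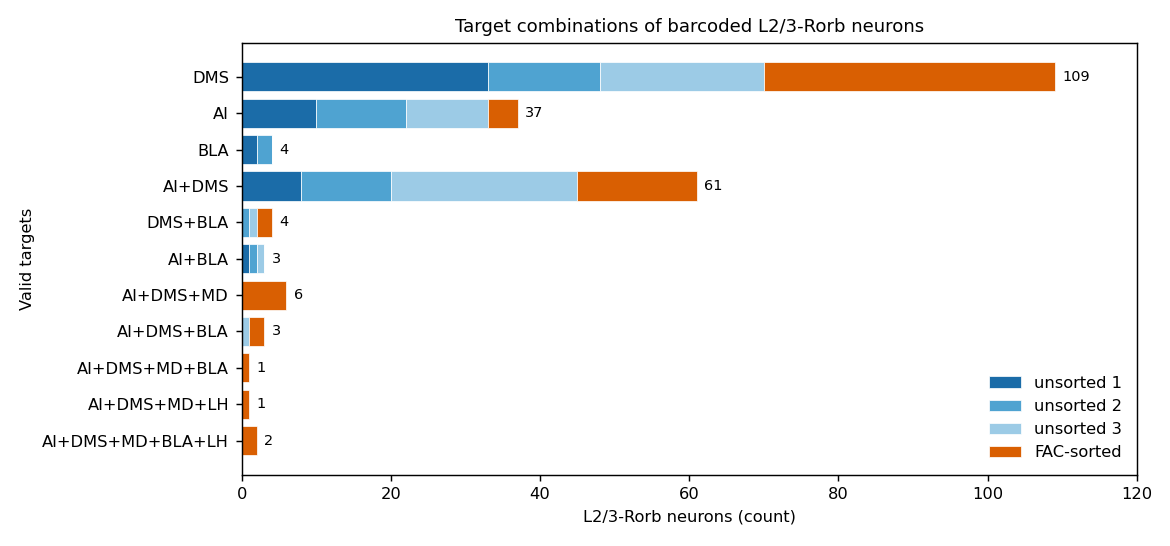
Number of barcoded L2/3-Rorb neurons with each combination of valid targets, stacked by library. DMS alone (109), AI with DMS (61) and AI alone (37) hold most of the neurons, and each pattern with MD or LH is made of sorted neurons only.

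The collateral share of barcoded neurons was 16.7, 32.6 and 45.9% in unsorted mice 1, 2 and 3 (9 of 54, 14 of 43 and 28 of 61 neurons). Their mean was 31.7 ± 14.6% (SD, n = 3), and the sorted library had 41.1%. The spread between mice was wide, and the mouse with the fewest reads per cell had the lowest share. With the reads of all libraries thinned to the number per cell of mouse 1, the mean of the mice was 14.0 ± 3.51% at the authors' thresholds but 54.0 ± 4.65% at thresholds recomputed for the thinned counts. In that last count mouse 1 was highest, at 59.1%, against 50.0 and 52.9% in mice 2 and 3 and 33.3% in the sorted library. Against L2/3-Calb1 the share was higher in each library, by 16.7, 20.1, 19.2 and 16.1 points (mean 18.0 ± 1.93, exact sign-flip p = 0.125), but this sets 81 collateral L2/3-Rorb neurons against 10 of L2/3-Calb1. The difference fell to 4.09 ± 7.11 points when each UMI was given to 1 barcode (exact p = 0.375), to 1.92 ± 18.5 with thresholds recomputed as well (exact p = 1), to 4.88 ± 5.54 with the DMS threshold for all barcodes and to 3.19 ± 3.71 with UMIs of at least 2 reads. Compared with all other subtypes, the collateral share was higher by 4.51, 3.50 and 3.78 points in the mice and lower in the sorted library, at -5.44. The mean was 1.59 ± 4.70 (exact p = 0.625), and it was 3.93 without the sorted library, 0.615 without mouse 1 and 0.952 without mouse 2. With thresholds recomputed on non-neuronal cells it was 8.05 ± 6.91. It turned to -7.33 with the DMS threshold for all barcodes and to -4.82 with UMIs of at least 2 reads.

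AI and DMS were called together more often than independence would give at the authors' thresholds. Of the neurons with valid AI, 8 of 19, 12 of 25 and 26 of 38 in the mice, and 28 of 32 in the sorted library, had valid DMS as well. If the calls were independent within a library, 5.56, 6.54, 14.8 and 20.3 such neurons would be expected. The ratio of observed to expected was 1.44, 1.83, 1.76 and 1.38, a log2 ratio of 0.67 ± 0.20 above 0 in 4 of 4 libraries (exact sign-flip p = 0.125). In these 74 neurons the median AI count was 44.5 UMIs and the median DMS count 224, and DMS was the larger count in 66. The neurons called for AI alone had a median of 64 DMS UMIs, against 30 in neurons with no valid target. Neurons with both were also frequent in the subtypes most like L2/3-Rorb in their targets. Over all libraries, DMS was valid in 68.4% of the AI neurons of L5-S100b and in 55.3% of those of L6-Npy, against 64.9% in L2/3-Rorb, and the differences between subtypes were not tested.

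This excess depended on the thresholds and on how molecules were counted. The log2 ratio was 0.26 ± 0.51 with thresholds 1.5 times higher, 0.20 ± 0.55 with the DMS threshold for all barcodes and 0.19 ± 0.43 with thinned reads, each with 1 library below independence (ratios of 0.714, 0.683 and 0.775) and an exact p of 0.375. Those 3 libraries held only 2, 1 and 3 neurons with both, where 2.8, 1.46 and 3.87 were expected. The log2 ratio was 0.69 ± 0.45, above 0 in 4 of 4 libraries, with thinned reads and new thresholds. Observed over expected was 1.31 to 1.68 over libraries with thresholds recomputed on non-neuronal cells and 1.36 to 1.82 with exact matches only. With neurons in the central depth range of L2/3-Rorb it was 1.305 to 1.786. With UMIs of at least 2 reads and all libraries pooled, 4 neurons had both where 5.04 were expected. Single-read UMIs made up 54.9 to 58.7% of all over libraries, and the authors' thresholds were kept. Fewer calls in that count were thus fixed in advance. In L2/3-Rorb neurons 43.0, 43.1, 46.8 and 35.0% of the combinations of a barcode and a UMI shared their UMI with another barcode of the same neuron. For LH the shared part was 61.8 to 77.8% over libraries, for BLA 60.8 to 74.4%, for MD 50.7 to 72.1%, for AI 46.1 to 56.6% and for DMS 18.9 to 27.8%. Nearly all the shared UMIs of the other 4 barcodes were also found with DMS, for example 49.7 of 52.2% for AI in mouse 1. Where a UMI stands for 1 molecule, it should carry 1 barcode.

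When each shared UMI went only to the barcode with the most reads, the barcoded neurons changed little and the collateral neurons fell. There were 224 barcoded neurons in place of 231, and 20 collateral neurons in place of 81. The authors' thresholds were kept while counts could only fall, so neither number could rise. DMS kept 169 neurons, AI 64, BLA 11, and MD and LH 0. Neurons with both AI and DMS numbered 17 where 22.4 were expected, and the log2 ratio turned to -0.39 ± 0.16, below 0 in all 4 libraries (exact sign-flip p = 0.125). Under this rule a shared UMI never counts for both barcodes, so part of the fall in the ratio is built in. Of the 74 neurons that had carried both, 45 kept DMS only, 11 AI only, 17 both and 1 neither, and their median AI count went from 44.5 to 10 UMIs. With thresholds set anew on the non-neuronal cells for these counts (AI 11, DMS 62, MD 71, BLA 5 and LH 23), 312 neurons were barcoded and 81 collateral, and the log2 ratio was -0.17 ± 0.38. In that count the ratio was above 1 in 2 of 4 libraries.

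**Figure D4:**
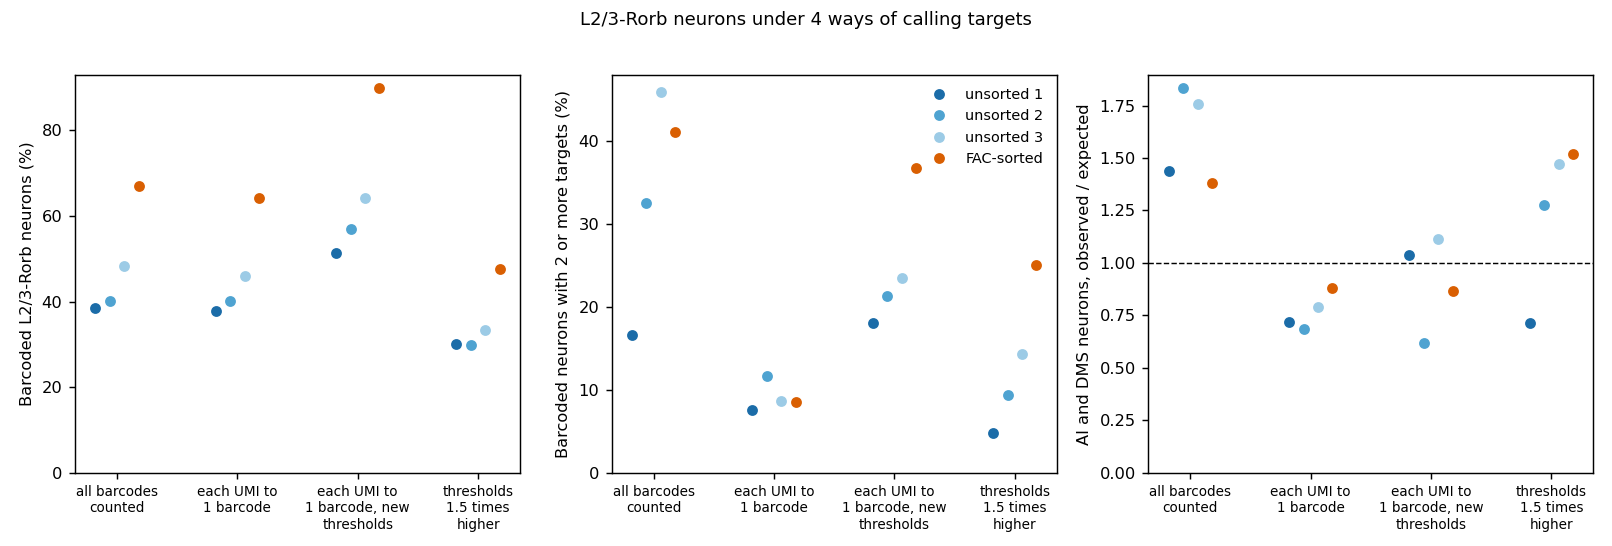
Barcoded share, collateral share of barcoded neurons, and observed over expected number of neurons with AI and DMS, for L2/3-Rorb, by library and by way of calling targets. The dashed line marks the number expected from independence. The barcoded share is nearly the same when each UMI is given to 1 barcode, while the collateral share drops to between 7.55 and 11.6% and the ratio falls below 1 in all 4 libraries. That rule only lowers counts and the thresholds were kept, so part of both falls is built in.

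The higher barcoded, AI and DMS shares than in L2/3-Calb1 and than in all other subtypes kept their direction in both counts. The barcodes also varied together across neurons. Across the 140, 107, 126 and 109 neurons of each library, Spearman's rho between DMS and MD counts was 0.901, 0.925, 0.923 and 0.898, and between DMS and AI it was 0.787, 0.709, 0.754 and 0.748. After each UMI was given to 1 barcode, rho was 0.269 to 0.393 for DMS with MD and 0.0393 to 0.102 for DMS with AI. Since that rule never keeps a shared UMI for both barcodes, part of this fall in rho is built in. The points share their library, their depth and, in the raw counts, part of their UMIs. Depth of the transcriptome went with the barcodes only weakly, with rho between 0.126 and 0.300 for the sum of the 5 barcodes.

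**Figure D5:**
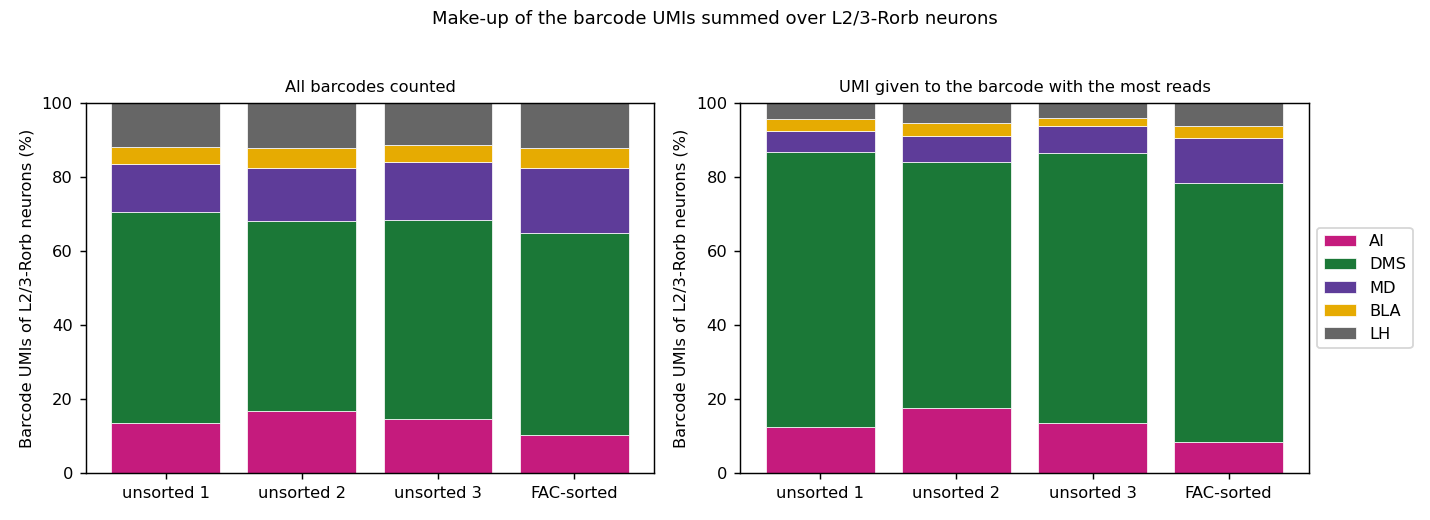
Percent of all barcode UMIs of L2/3-Rorb neurons that belong to each barcode, by library, with all barcodes counted (left) and with each UMI counted only for its best-read barcode (right). DMS rises from between 51.4 and 57.0% to between 66.4 and 74.4%, AI changes by less than 2 points, and MD, BLA and LH shrink in every library.

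Barcoded and other L2/3-Rorb neurons had similar transcriptome depth. The median UMI count was 20888 in barcoded and 19915.5 in other neurons of mouse 1, 21456 and 20607.5 in mouse 2, 22833 and 21645 in mouse 3, and 29834 and 27438 in the sorted library. Barcoded neurons were thus slightly deeper in each library, and the part of depth in the calls within L2/3-Rorb was not tested. Between subtypes, all neurons were also limited to the central depth range of L2/3-Rorb. There the AI, DMS and barcoded differences were 17.8, 22.7 and 24.4 points against L2/3-Calb1 and 14.2, 25.3 and 24.6 against all other subtypes, each with an exact p of 0.125. Against L6-Npy the DMS and barcoded differences were 10.6 and 10.2 points, while AI was 3.48 ± 4.25 (exact p = 0.25). The DMS difference from L5-S100b went from -1.71 to 0.625 points.

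The annotated neurons are cut at the top. The authors had removed cells above the 95th percentile of summed barcode UMIs in each library, which lay at 403.9, 486.2, 529.3 and 1012.3 UMIs. Cells of all types were cut together, so the part of L2/3-Rorb neurons that was lost is not known. The highest L2/3-Rorb neurons had 400, 478, 521 and 985 UMIs, just below these limits. L2/3-Rorb neurons with still more UMIs have no subtype in the files used, and the shares above are shares of the neurons that were kept.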

How the data were processed

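Projectome libraries of 3 unsorted mice and 1 FAC-sorted pool of 3 mice were used. The authors aligned the transcriptomes with Cell Ranger to mm10 with the barcodes added, matched projectome reads to the 5 barcodes with a modified deMULTIplex, and deposited UMI counts per cell without normalization. The deposited annotation also gives the percent of mitochondrial and ribosomal UMIs, computed by the authors. The joined matrix, in which counts at or below the threshold are 0, was used to derive the thresholds. Of the tables of the whole series, 22 columns were not used.

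L2/3-Rorb neurons were joined by cell name to their raw counts, and each read was recounted with up to 2 mismatches to find UMIs seen with more than 1 barcode. Ties in reads were dropped. Subtypes were compared within library by exact two-sided sign-flip tests over 4 libraries, and a one-sided exact permutation test set the sorted library against the mice. Benjamini-Hochberg adjustment was made over 5 targets. Shares have exact (Clopper-Pearson) 95% intervals, which, with the limits of 3 counts for a count of 0, cover counting error only. The items named were all 5 targets, the compared subtypes and every combination found in 5 or more members, with the count of rarer ones; the rarer ones named beside them were named after their counts were seen. The members, subtypes and tests were chosen with earlier results of these data known. Alternatives were other thresholds, exact matches, UMIs of at least 2 reads, shared UMIs given to 1 barcode, thinned reads, limits on transcriptome depth, pooled cells and libraries left out. UMIs of at least 2 reads were called at the authors' thresholds only, so fewer calls there were built in. At those thresholds, giving shared UMIs to 1 barcode could likewise only lower the number of calls. No doublet caller was run. The code recovered 20 of 20 quantities on simulated data. The software was matplotlib 3.10.9, scipy 1.17.1, pandas 2.3.3 and numpy 2.4.6 under Python 3.11.15. The expression matrices were not analysed here.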

Additional observations from a re-analysis of the deposited data

Results flagged for a closer look

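The collateral share of barcoded L2/3-Rorb neurons minus that of all other subtypes was positive in each unsorted mouse, at 4.51, 3.50 and 3.78 percentage points, and negative in the FAC-sorted library, at -5.44 points, all at the authors' thresholds. Its mean over the 4 libraries was 1.59 points and moved both ways with the calling of targets. It was 8.05 ± 6.91 with thresholds recomputed on non-neuronal cells and 9.75 ± 6.85 with thinned reads as well, and it turned to -7.33 with the DMS threshold for all barcodes, -4.82 with UMIs of at least 2 reads and -0.011 with exact matches only. The log2 ratio of mean BLA UMIs of L2/3-Rorb over L2/3-Calb1 was 1.42, 0.32 and 0.24 in the mice and -0.0039 in the sorted library, which is near 0. With each UMI given to 1 barcode, its mean turned from 0.49 to -0.27. In both cases every mouse lay on 1 side and the single sorted library on the other. Neither of these differences between the sorted library and the mice was tested.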

How the results depend on the processing

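No setting reversed the higher barcoded, AI and DMS shares of L2/3-Rorb than of L2/3-Calb1 and of all other subtypes, but their sizes moved. Apart from leaving out libraries, the barcoded, AI and DMS differences ran from 15.9 to 31.9, 5.52 to 23.2 and 8.30 to 28.3 points against L2/3-Calb1, and from 13.6 to 24.6, 4.43 to 16.3 and 7.61 to 30.4 against all others. Against all others, MD, BLA and LH kept their direction and ran from -10.9 to -1.27, 0.347 to 11.8 and -12.5 to -0.576. Of 335 planned values other than those that leave out a library, 283 kept their direction or moved by less than the spread, as did 132 of 139 with a library left out. The calls depend on the thresholds, the reads per cell and the treatment of shared UMIs, and the smallest p with 4 libraries is 0.125. Subtypes were compared within each library, which pairs them. For sorted against unsorted libraries, no paired analysis was possible because they came from different mice. Causes were not tested. Differences below are in percentage points of L2/3-Rorb minus the subtype named.

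The unsorted barcoded share was 49.4% with thresholds recomputed on non-neuronal cells, 31.1% with thresholds 1.5 times higher, 35.0% with the DMS threshold for all barcodes, 18.1% with UMIs of at least 2 reads and, all added after the data were seen, 48.6% with thinned reads and new thresholds, 57.6% with shared UMIs given to 1 barcode and new thresholds and 54.9% by the annotation's label. The collateral share was 54.4% with recomputed thresholds, 9.47% with higher ones, 5.95% with the DMS threshold, 2.30% with 2 reads, 9.27% with shared UMIs given to 1 barcode (20.9% with new thresholds too) and 14.0% with thinned reads (54.0% with new thresholds too). Sorted minus unsorted turned to -8.13 with thinned reads and to -7.28 with new thresholds too.

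With recomputed thresholds, BLA against L2/3-Calb1 turned to 12.5 and LH to 10.5, and LH against L5-S100b to -4.99. With higher thresholds, MD and LH against L2/3-Calb1 were 0, LH against L5-S100b -0.0899, MD, BLA and LH against L6-Npy -0.0903, -0.0842 and -0.105, and the collateral difference from all others -1.59. With the DMS threshold, LH against L2/3-Calb1 was 0.0044, AI against L5-S100b 1.25 and the collateral difference -7.33. With exact matches only, LH against L5-S100b was -0.171 and against L6-Npy -0.265, and the collateral difference -0.011. With 2 reads, MD and LH were 0 against L2/3-Calb1, L5-S100b and L6-Npy, and the collateral difference was -4.82. With thinned reads, MD against L2/3-Calb1 and both MD and LH against L5-S100b were 0, MD and LH against L6-Npy -0.105, and the collateral difference -2.17; with new thresholds too, BLA and LH against L2/3-Calb1 were 7.77 and 7.32 and LH against L5-S100b -0.853. With cells pooled, LH against L2/3-Calb1 was 0.024 and the collateral difference -0.064. DMS against L5-S100b was 0.625 in the central depth range and 0.930 without the deepest neurons.

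With shared UMIs given to 1 barcode, MD against L2/3-Calb1 was 0, LH against L5-S100b -0.131, MD, BLA and LH against L6-Npy -0.195, -0.141 and -0.314, the log2 ratio of AI with DMS -0.39 and that of BLA UMIs -0.27. With new thresholds as well, MD against L2/3-Calb1 was -0.697, LH against L5-S100b -1.96, AI, MD and LH against L6-Npy -1.94, -0.105 and -0.693, the collateral difference -0.794, the AI with DMS ratio -0.17 and the BLA ratio -0.27.

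With each library left out in turn, the difference ran for MD against L2/3-Calb1 from -0.34 to 1.3, LH against L2/3-Calb1 from -0.34 to 0.0402, DMS against L5-S100b from -3.88 to 1.73, LH against L5-S100b from -0.175 to 0.558, MD against L6-Npy from -0.139 to 1.98, BLA against L6-Npy from -0.0831 to 1.04 and LH against L6-Npy from -0.418 to 0.677.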

Other observations

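The annotation carries its own label for barcoded cells, whose rule was not worked out here. It marked 301 of the 482 L2/3-Rorb neurons (67, 58 and 79 in the mice and 97 in the sorted library). Of these, 70 had no valid target at the thresholds used above. Among all excitatory neurons without the label, the highest counts were 25 (AI), 59 (DMS), 105 (MD), 35 (BLA) and 81 UMIs (LH). None of these is above the threshold used here.

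The UMIs of the 5 barcodes differed in the reads behind them. In L2/3-Rorb neurons a UMI of DMS had a mean of 40.7, 48.5 and 55.7 reads in the mice and 56.4 in the sorted library. For AI the mean was 27.6, 50.0, 43.1 and 41.1 reads, and for BLA 22.8, 27.8, 19.0 and 24.6. MD UMIs had 7.67, 7.69, 7.33 and 8.64 reads and LH UMIs 3.12, 4.14, 5.47 and 2.76, the lowest of the 5 barcodes in each library. UMIs with a single read made up 58.7, 57.4, 54.9 and 56.0% of all. With UMIs of at least 2 reads at the authors' thresholds, 101 L2/3-Rorb neurons were barcoded, 45 for AI and 54 for DMS, and 4 of them were collateral.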
